A study of Mus musculus with 18 samples.

Results

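Transcripts of 9 genes for protein kinase C (PKC), protein kinase A (PKA) and the tyrosine kinase Fyn were examined in mouse medial prefrontal cortex after microglia had been depleted. The genes were chosen by name, as kinases linked to the response of neurons to ethanol, and each was found once among the 54547 gene rows of the count files. They are Prkca, Prkcb, Prkce and Prkcd, which encode PKC isoforms, Prkaca, Prkacb, Prkar1b and Prkar2b, which encode PKA subunits, and Fyn. The tested libraries are 9 from C57BL6/J mice fed chow with PLX5622 at 1200 mg/kg, and the comparison libraries are 9 from mice of the same strain fed a control diet. PLX5622 inhibits CSF1R, the receptor on which microglia depend for survival. The labels describe 21 days of treatment, then 44 days of drinking 15% ethanol every other day, and tissue collection at postnatal day 100, 24 hours after ethanol was last offered. The same text is attached to all 18 samples, PLX5622 included, so the groups rest on the diet named in the title, and no water group was available for comparison. The deposited names of all 18 libraries also carry the abbreviation Sal, which the labels do not explain.

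PKC isoforms are serine and threonine kinases that are recruited to membranes by diacylglycerol, and the conventional isoforms also need calcium. PKA is a tetramer in which a pair of regulatory subunits holds a pair of catalytic subunits inactive until cyclic AMP binds. Fyn is a Src family kinase that phosphorylates NMDA receptor subunits at synapses and also acts in oligodendrocytes during myelination. In mice, loss of PKC epsilon lowers ethanol drinking, loss of the RII beta subunit encoded by Prkar2b raises it, and loss of Fyn increases sensitivity to the sedative effect of ethanol. The libraries measured RNA of whole tissue, in which any of these transcripts may come from several cell types.

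Libraries held 990136 to 1742680 counts with PLX5622 and 1107406 to 1581868 on the control diet. No difference in mean total between the diets was detected (two-sided exact permutation p = 0.580). The same held for the mitochondrial share of counts, 4.55% ± 0.39 with PLX5622 and 4.64% ± 0.30 on the control diet (SD, n = 9 each, exact p = 0.579). Values are given as CPM, the counts scaled to library size after TMM normalization. The depletion was visible in the microglial markers. All 12 genes of a homeostatic microglia list fell, and their summed level was 147 ± 25 CPM with PLX5622 and 469 ± 45 CPM on the control diet (SD, n = 9 each, exact p = 4.1e-05, adjusted 0.00049 over 12 marker lists). With 48620 possible assignments of the libraries this is the smallest p that can be reached. Fewer microglia and less RNA per microglial cell cannot be told apart in such data. Csf1r itself was at 19.3 ± 4.1 CPM with PLX5622 and 65.2 ± 15.3 CPM on the control diet. Summed markers of neurons, astrocytes, oligodendrocytes and vessels showed no detected difference in mean, with adjusted exact p from 0.500 to 0.963. Such sums are weighted to their most abundant genes. In the oligodendrocyte precursor list 5 of 6 genes were higher with PLX5622 and 1, Tnr, was lower. Tnr held 245 of 349 CPM with PLX5622 and 261 of 349 CPM on the control diet. In the astrocyte list 6 of 7 genes were higher and 1, Slc1a2, which held most of the sum, was lower. In both lists edgeR called 0 genes. The sum of 4 choroid plexus markers was higher, at 18.3 ± 10.9 CPM with PLX5622 and 7.35 ± 3.39 CPM on the control diet (SD, n = 9 each, exact p = 0.0049, adjusted 0.029). Most of it was Ttr, at 15.5 CPM with PLX5622 and 5.30 CPM on the control diet, which edgeR did not call (adjusted p = 0.283). Of the others, all too low for the test, Kl was at 2.41 CPM with PLX5622 and 1.48 CPM on the control diet, while Folr1, at 0.348 and 0.417 CPM, and Aqp1, at 0.0773 and 0.156 CPM, were lower with PLX5622 than on the control diet in mean.

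None of the 9 kinase genes passed the test for a difference between the diets. All 9 passed the filter on low counts, and 0 were called by edgeR's quasi-likelihood test at a Benjamini-Hochberg adjusted p under 0.05, where 0.398% of the 11051 genes tested were called, 0.353% lower and 0.0452% higher. DESeq2 and limma-voom also called 0 of the 9, against 0.396% and 0.498% of the genes each tested. At an unadjusted p under 0.05 the count was 1 of 9, Prkcd, against 6.79% of all genes. The values of both diets overlapped in all 9 genes, while 0.199% of genes had groups that did not overlap. The log2 fold changes, PLX5622 over control throughout, were negative in 6 and positive in 3 with a median of -0.013, and the median over all genes tested was 0.000099. For the 8 genes other than Prkcd, the 95% intervals of the change reached no lower than -12.4% and no higher than 18.2%.

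**Figure D1:**
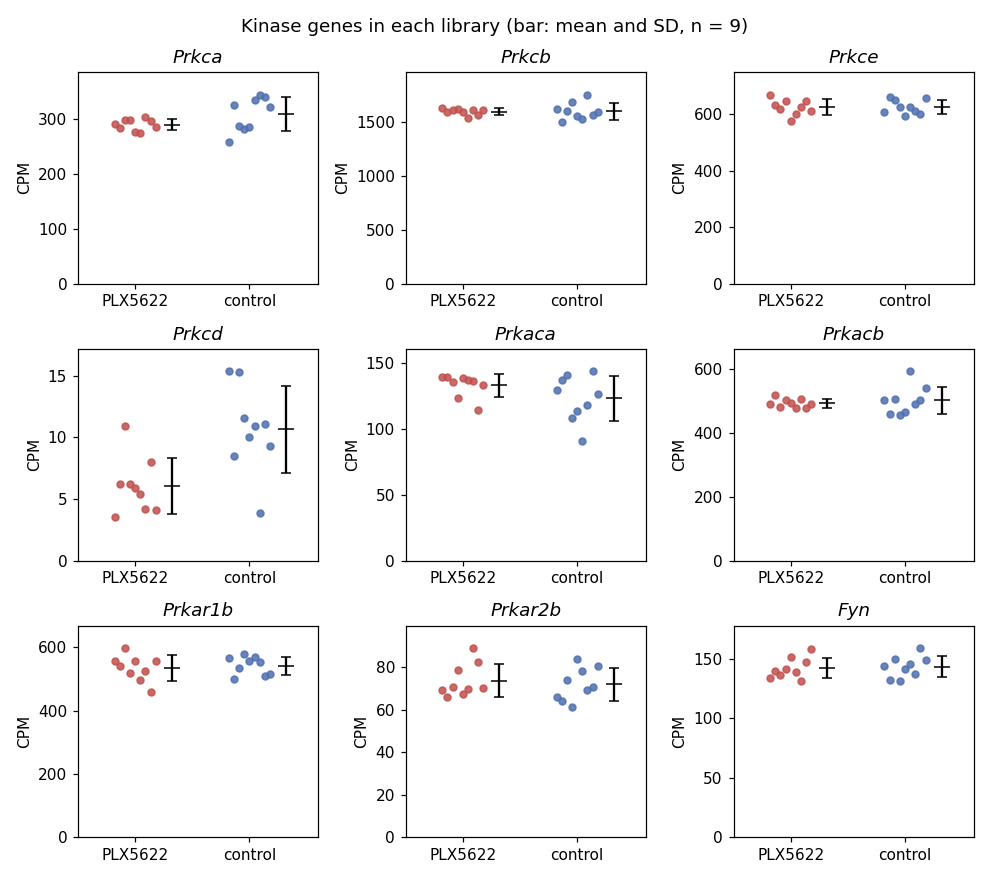
TMM-scaled CPM of each kinase gene in each library (vertical axis, from 0), PLX5622 libraries left and control libraries right of each panel, with the mean and SD of the 9 libraries beside the points. The diets overlap in every panel, and Prkcd, at 3.55 to 10.9 CPM with PLX5622 and 3.82 to 15.4 CPM on the control diet, has the widest relative spread.

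Prkcb and Prkca encode the conventional isoforms PKC beta and PKC alpha. Prkcb lies on chromosome 7 from 122288751 to 122634402 (plus strand) and Prkca on chromosome 11 from 107933387 to 108343928 (minus strand), in the GENCODE M21 annotation of GRCm38, the assembly that the submitters' processing notes name. Prkcb had the highest counts of the 9, 1560 to 2751 per library. Its lowest, median and highest levels were 1529, 1605 and 1626 CPM with PLX5622, against 1497, 1587 and 1750 CPM on the control diet. The PLX5622 values lay inside the control range, and the log2 fold change was -0.0036 ± 0.0371 (SE), a change of -0.25% with a 95% interval of -5.24% to 5.00% (edgeR adjusted p = 0.998). Prkca ran from 275 through a median of 291 to 304 CPM with PLX5622, against 259, 323 and 345 CPM on the control diet. All 9 PLX5622 libraries lay below the control mean of 310 CPM, yet the lowest library of all was control 2, and the control libraries stood in 2 sets, 4 at 259 to 289 CPM and 5 at 323 to 345 CPM. The log2 fold change of Prkca was -0.09 ± 0.05 (SE), or -6.29% with an interval of -12.4% to 0.285%, and did not pass (edgeR adjusted p = 0.760, exact permutation p of the CPM 0.10).

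Prkce and Prkcd encode PKC epsilon and PKC delta, of the class that responds to diacylglycerol without calcium. Prkce lies on chromosome 17 from 86167785 to 86657919 (plus strand). Its lowest, median and highest levels were 577, 627 and 670 CPM with PLX5622, against 596, 625 and 661 CPM on the control diet. The means were 626.4 ± 27.7 and 626.5 ± 24.7 CPM (SD, n = 9 each), so the diets differed by far less than the spread of libraries. The log2 fold change was 0.00044 ± 0.03997 (SE), its sign changed with RLE and upper-quartile scaling, and the interval was -5.34% to 5.71% (edgeR adjusted p = 0.999).

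Prkcd was the only kinase gene whose interval did not include 0. The gene lies on chromosome 14 from 30595354 to 30626210 (minus strand), and no other gene model overlaps it. It held 76 counts in the PLX5622 libraries and 127 in the control libraries, 6 to 23 per library, so that a single count weighs heavily. Its lowest, median and highest levels were 3.55, 5.91 and 10.9 CPM with PLX5622, against 3.82, 10.9 and 15.4 CPM on the control diet. Of the 9 PLX5622 libraries 8 lay below the control median and 1, PLX5622 27, just above it, while control 9 lay among the lowest PLX5622 libraries. The means were 6.05 ± 2.28 CPM with PLX5622 and 10.7 ± 3.5 CPM on the control diet (SD, n = 9 each). The log2 fold change was -0.79 ± 0.22 (SE), or -42.2% with an interval of -57.5% to -21.5%. By unadjusted p, 0.000645, the gene ranked 61st of 11051, and it did not pass after adjustment (edgeR adjusted p = 0.117, DESeq2 0.302, limma-voom 0.236). The exact permutation test of its CPM, added after the values were seen, gave an unadjusted p of 0.0053.

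Whether Prkcd was called depended on single libraries. Without control 9 the log2 fold change was -0.92 and without PLX5622 27 it was -0.96, and the gene was then called (edgeR adjusted p = 0.015 and 0.021). These are the lowest control library and the highest PLX5622 library for Prkcd, so leaving out either widens the difference. Over all 18 fits that each leave out 1 library, the log2 fold change ran from -0.96 to -0.70 and the adjusted p from 0.015 to 0.298. Prkcd reached the level that the filter asks for, 7.22 CPM before TMM scaling, in 2 PLX5622 libraries and 8 control libraries, so it was tested mainly through the control libraries. Microglial markers moved in the same direction, with all 12 lower and summed levels of 109 to 195 CPM with PLX5622 and 411 to 578 CPM on the control diet. None of the 12 was at 0 over the PLX5622 libraries. Markers of thalamic and claustral neurons summed to 155 ± 13 CPM with PLX5622 and 148 ± 15 CPM on the control diet, with 0 of 5 tested genes called. Of these 5, 3 were higher and 2 lower with PLX5622. The largest change was that of Nr4a2, at 0.65 ± 0.17 (log2, SE, edgeR adjusted p = 0.084). Blood myeloid markers summed to 23.3 ± 12.2 CPM with PLX5622 and 44.1 ± 65.5 CPM on the control diet (SD, n = 9 each). A single library, control 3, held 218 CPM of them, and without it the control mean was 22.4 ± 7.7 CPM (SD, n = 8). The part of these markers in the Prkcd value was not tested, and neither was that of the choroid plexus markers given above.

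**Figure D2:**
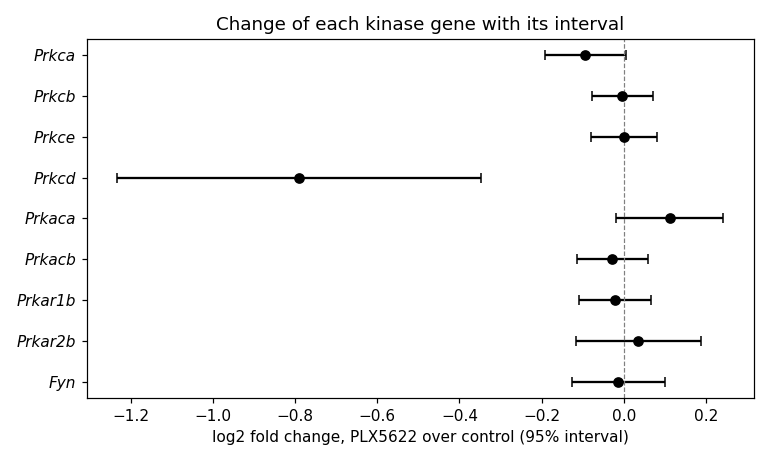
Log2 fold change of each kinase gene, PLX5622 over control, from edgeR (horizontal axis), with bars for the 95% interval. The intervals of 8 genes cross 0 and lie within -0.20 to 0.25, while that of Prkcd runs from -1.23 to -0.35.

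The catalytic subunits of PKA are encoded by Prkaca and Prkacb. Prkaca lies on chromosome 8 from 83972993 to 83996443 (plus strand) and Prkacb on chromosome 3 from 146729574 to 146812990 (minus strand). Prkaca had its lowest, median and highest levels at 114, 136 and 140 CPM with PLX5622, against 90.8, 127 and 144 CPM on the control diet. The PLX5622 libraries lay inside the control range, 8 of them above the control mean, and control 8 was the lowest library. The log2 fold change was 0.11 ± 0.07 (SE), or 8.05% with an interval of -1.26% to 18.2% (edgeR adjusted p = 0.808). Prkacb ran from 477 through 488 to 517 CPM with PLX5622, against 456, 502 and 591 CPM on the control diet. Here control 8 was the highest library, and the log2 fold change was -0.03 ± 0.04 (SE), an interval of -7.64% to 4.18% (edgeR adjusted p = 0.963). Prkaca made up 13.3% of the counts of both catalytic genes in control 8, against 19.3% to 22.3% in the PLX5622 libraries. Over each diet this share was 21.3% ± 1.1 with PLX5622 and 19.8% ± 2.8 on the control diet (SD, n = 9 each). Without control 8 the log2 fold change of Prkaca was 0.064 and that of Prkacb 0.0050.

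The regulatory subunits RI beta and RII beta, encoded by Prkar1b and Prkar2b, are the forms of PKA regulatory subunit typical of neurons. Prkar1b lies on chromosome 5 from 139017306 to 139150001 and Prkar2b on chromosome 12 from 31958476 to 32061296, both on the minus strand. Prkar1b had its lowest, median and highest levels at 458, 541 and 597 CPM with PLX5622, against 500, 554 and 578 CPM on the control diet. The PLX5622 values reached beyond the control values at both ends. The log2 fold change was -0.02 ± 0.04 (SE), an interval of -7.27% to 4.65% (edgeR adjusted p = 0.977). Prkar2b ran from 66.2 through 70.2 to 89.0 CPM with PLX5622, against 61.3, 70.9 and 83.9 CPM on the control diet. The medians of the diets were nearly equal, and the log2 fold change was 0.03 ± 0.08 (SE), an interval of -7.81% to 13.8% (edgeR adjusted p = 0.981). With 74 to 134 counts per library, the interval of Prkar2b was wider than that of Prkar1b, which had 501 to 941.

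Fyn lies on chromosome 10 from 39368855 to 39565381 (plus strand). Its lowest, median and highest levels were 131, 139 and 158 CPM with PLX5622, against 131, 144 and 159 CPM on the control diet. The ranges of the diets nearly coincided, and the log2 fold change was -0.01 ± 0.06 (SE), or -0.903% with an interval of -8.37% to 7.17% (edgeR adjusted p = 0.995). Markers of myelinating oligodendrocytes, cells that use Fyn, differed widely among libraries, from 1139 to 2325 CPM in sum with PLX5622 and from 1327 to 2004 CPM on the control diet. The marker sum was 1650 ± 425 CPM with PLX5622 and 1580 ± 265 CPM on the control diet (SD, n = 9 each). Fyn, at 142.0 ± 8.7 CPM with PLX5622 and 143.1 ± 8.9 CPM on the control diet, varied less for its level. Its coefficient of variation was 6.12% with PLX5622 and 6.25% on the control diet. The part of these cells in the Fyn value was not tested.

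Levels were compared between the genes per kilobase of annotated exon, a rough scale for libraries biased to the 3' end. The order depends on this division. Without it, Prkce stood above Prkar1b, at 626 and 534 CPM with PLX5622 and 626 and 542 CPM on the control diet, and Prkca above Prkaca, at 290 and 133 CPM with PLX5622 and 310 and 123 CPM on the control diet. Prkcb was highest, at 208.0 ± 3.9 CPM per kb with PLX5622 and 209 ± 10 on the control diet (SD, n = 9 each). Prkar1b followed at 140.2 ± 10.6 CPM per kb with PLX5622 and 142 ± 7 on the control diet, and Prkce at 86.3 ± 3.8 and 86.3 ± 3.4. On the scale per kilobase each of these 3 lay above the next gene in all 18 libraries without overlap. Prkacb and Prkaca came next, at 56.1 ± 1.6 and 53.6 ± 3.5 CPM per kb with PLX5622 and at 57.1 ± 4.9 and 49.6 ± 6.9 on the control diet, and their ranges overlapped. Prkca and Fyn could not be ordered, with 32.3 ± 1.1 and 32.6 ± 2.0 CPM per kb with PLX5622 and 34.4 ± 3.5 and 32.8 ± 2.1 on the control diet. Prkca also overlapped Prkaca in the control libraries. Prkar2b, at 20.2 ± 2.1 CPM per kb with PLX5622 and 19.8 ± 2.1 on the control diet, lay below Fyn and above Prkcd in every library. Prkcd was lowest, at 1.09 ± 0.41 CPM per kb with PLX5622 and 1.92 ± 0.63 on the control diet.

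The spread among libraries differed between the diets for part of the genes, a pattern noticed after the values were seen and not tested. In 7 of the 9 genes the SD of the log2 CPM was smaller with PLX5622, as it was in 59.4% of the 5767 genes that averaged 50 counts or more. Prkcd, which is among the 7, averaged 11.3 counts and lies outside those 5767 genes. The ratio of SDs, PLX5622 over control, was 0.33 in Prkca, 0.34 in Prkacb, 0.38 in Prkcb and 0.46 in Prkaca, against a median of 0.91 over those genes. Ratios below that of Prkca were found in 0.520% of the 5767 genes, below that of Prkacb in 0.572% and below that of Prkcb in 1.28%. In these 4 genes the coefficient of variation with PLX5622 was no larger than counting error alone would give. That is not particular to them or to PLX5622. The coefficient of variation of Fyn was 6.12% with PLX5622 and 6.25% on the control diet, where counting error gives 7.12% and 7.23%. For Prkacb it was 2.83% with PLX5622 and 8.59% on the control diet, where counting error gives 3.82% and 3.86%. For Prkca it was 3.41% with PLX5622 and 10.1% on the control diet, where counting error gives 4.97% and 4.91%. With each library left out in turn, the ratio of Prkca stayed between 0.29 and 0.40 and that of Prkacb between 0.27 and 0.49, while that of Prkaca reached 0.66 without control 8 and that of Prkcb 0.52 without control 9. Prkar1b and Prkce went the other way, at 1.46 and 1.13, and Fyn, Prkar2b and Prkcd were at 0.97, 0.94 and 0.82. The count of 7 rests on single libraries, since the ratio passed 1 in Fyn without control 10 (1.16), in Prkar2b without control 5 (1.05) and in Prkcd without control 9 (1.48). The coefficient of variation of Prkcd was larger with PLX5622, 37.7%, than on the control diet, 33%.

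**Figure D3:**
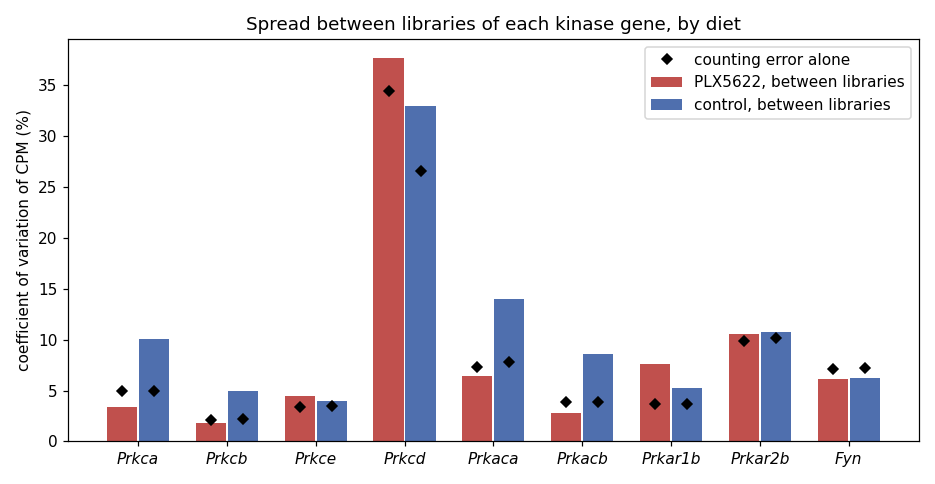
Coefficient of variation of the CPM among the 9 libraries of each diet (bars, percent, PLX5622 left and control right for each gene), with diamonds for the variation that counting error alone gives at the mean count. Bars of Prkca, Prkcb, Prkaca and Prkacb stand above their diamonds in the control libraries and at or below them with PLX5622, and Prkcd has the largest spread, 37.7% with PLX5622 and 33% on the control diet.

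The animal numbers in the labels run upward within each diet, and other genes of this dataset followed them, so the rank of each number among those of its diet was fitted as a covariate. No kinase gene passed for its slope (edgeR, 0 of 9 called, where 0.308% of genes were called). At an unadjusted p under 0.05 the count was 1 of 9, Prkca, against 9.27% of all genes, and limma-voom also called 0. Prkca had a slope of 0.019 ± 0.009 (log2 per position, SE, edgeR adjusted p = 0.524), Prkar2b 0.028 ± 0.014 (0.541) and Prkcd -0.065 ± 0.041 (0.651). With position in the fit the diet difference of Prkcd was again -0.79 (log2, edgeR adjusted p = 0.082). PLX5622 animals are numbered 25 to 35 and control animals 2 to 11, and diet cannot be told apart from anything that differed between these blocks of numbers.

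**Figure D4:**
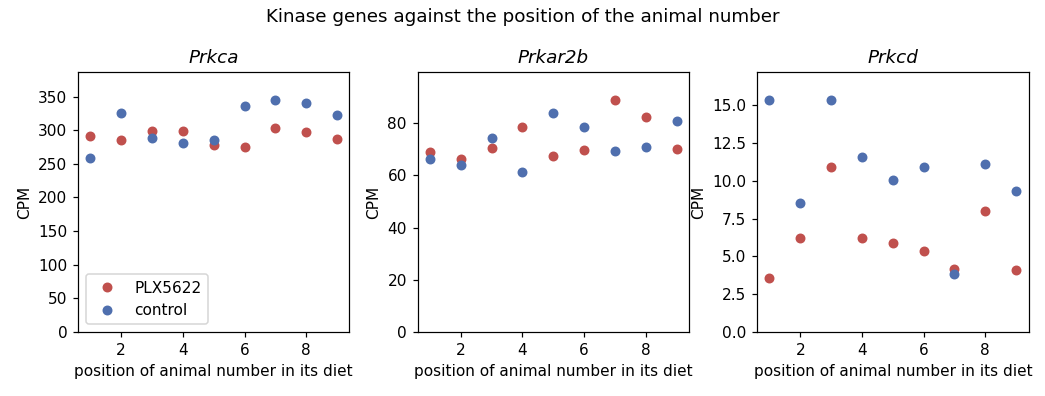
TMM-scaled CPM (vertical axes, from 0) of the 3 kinase genes with the smallest unadjusted p for the slope, against the rank of the animal number among those of the same diet, 1 point per library. Prkca is highest in late control libraries, at 345 CPM in control 9, and Prkcd is highest in control 2 and control 4, both at 15.4 and 15.3 CPM, but no slope passed the test.

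The kinase genes did not vary as a block among libraries. Deviations from the diet means of log2 CPM, compared over the 18 libraries as a description, gave Pearson's r from -0.45, between Prkca and Prkcd, to 0.43, between Prkcb and Prkar1b, with a median of -0.016 over 36 pairs. The libraries share depth and scaling across genes. Among the same 5767 genes, those most like a kinase gene by this measure with an r of at least 0.8 were Phb2 and Rab6b for Prkcb (both 0.81), 5330434G04Rik and Nin for Prkacb (0.87 and 0.83) and Rfc2 for Prkar1b (0.83). The other 6 kinase genes had no match at that level, but their best matches came close, from 0.753 for Prkaca to 0.797 for Fyn. These r were picked as the highest of 5767 over only 18 libraries and were not tested.

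Genes around these kinases were counted in 9 lists of 70 genes, of which 59 were tested. Only Lyn was called, lower with PLX5622, and 31 values were negative and 28 positive. At an unadjusted p under 0.05 there were 4 of 59, namely Lyn, Dgkq, Pag1 and Ppp1r1b, where 6.79% of all genes reached that level. Among the other PKC isoforms 3 of 5 genes were tested and none called, with Prkch, the eta isoform, at -0.38 ± 0.21 and Prkci, an atypical isoform that needs no diacylglycerol, at 0.08 ± 0.09 (log2, SE). The phospholipase C genes, which make diacylglycerol, had 7 of 10 tested and none called, with Plce1 at 0.29 ± 0.16 and Plcd4 at 0.25 ± 0.21. The diacylglycerol kinases, which remove it, had all 9 tested and none called, with Dgkq at -0.39 ± 0.13 (edgeR adjusted p = 0.274) and Dgki at -0.09 ± 0.05. All 8 PKC substrates and binding proteins were tested and none called, with Marcksl1 at 0.15 ± 0.09 and Gap43, a growth cone protein, at 0.07 ± 0.05.

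PKA partners gave the same picture. Of the remaining PKA subunits and inhibitor peptides 5 of 5 were tested and none called, with Pkib, an inhibitor peptide, at -0.26 ± 0.13 and Pkig at 0.05 ± 0.06 (log2, SE). Of the A-kinase anchoring proteins, which tether PKA near its substrates, 11 of 12 were tested and none called, with Akap9 at -0.11 ± 0.06 and Akap7 at -0.09 ± 0.07. The untested gene, Akap2, shares nearly all its exons with a further gene model. All 9 targets of PKA were tested and none called, with Ppp1r1b, which encodes the phosphatase inhibitor DARPP-32, at 0.19 ± 0.09 (edgeR adjusted p = 0.708) and Crtc3, a CREB coactivator, at -0.16 ± 0.09.

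Of Fyn's relatives, the other Src family kinases, 3 of 7 were tested and only Lyn was called. Lyn, a Src family kinase of myeloid cells, fell to 9.45 ± 1.92 CPM with PLX5622, against 17.7 ± 4.9 CPM on the control diet (SD, n = 9 each), a log2 fold change of -0.91 ± 0.17 (SE, edgeR adjusted p = 0.00051). Its libraries ran from 6.50 to 12.3 CPM with PLX5622 and from 12.2 to 27.0 CPM on the control diet, so the diets overlapped only at the edge. The microglial markers given above moved in the same direction, and their part in the Lyn value was not tested. Src and Yes1 were at -0.05 ± 0.09 and -0.06 ± 0.13 (log2, SE), and Fgr, Lck and Blk had 5, 23 and 0 counts with PLX5622 and 7, 33 and 1 on the control diet. Among regulators of Src family kinases 4 of 5 were tested and none called, with Pag1, the membrane anchor of the inhibitory kinase Csk, at -0.24 ± 0.11 (edgeR adjusted p = 0.704) and Csk at -0.08 ± 0.17. Ptpn5, which encodes STEP, a phosphatase that inactivates Fyn, was at -0.0061 ± 0.0546.

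**Figure D5:**
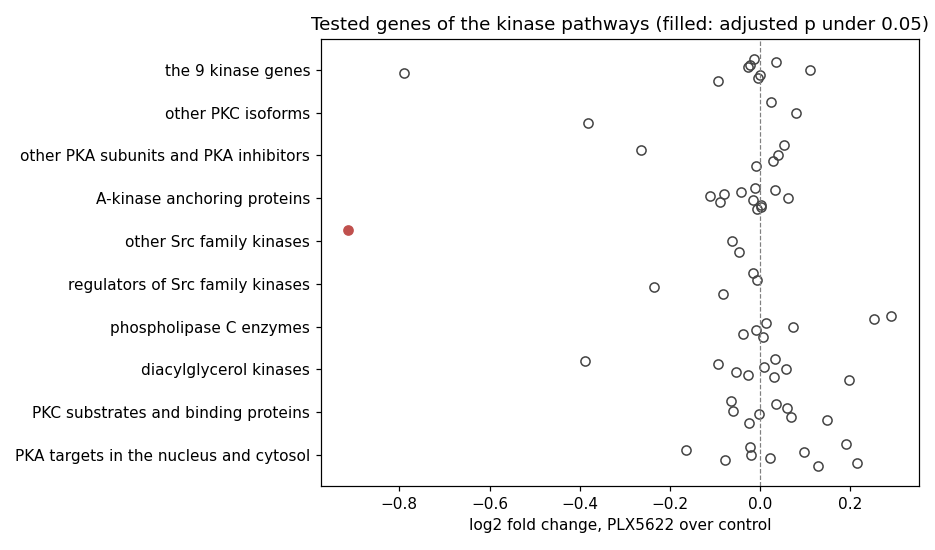
Log2 fold change, PLX5622 over control (horizontal axis), of every tested gene of the 9 kinase genes and of the 9 pathway lists (rows), filled where the edgeR adjusted p is under 0.05. Lyn, at -0.91 among the other Src family kinases, is the only filled point, and Prkcd at -0.79 is the farthest of the kinase genes.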

How the data were processed

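The deposited files hold whole-number read counts per Ensembl gene, 1 file per library. Per the labels, these were single-end libraries with 3' bias. The builds mm10 and GRCm38.p6 stand in the submitters' processing notes, with DESeq2 1.10.1, R 3.5.1, HTSeq 0.11.0, Bowtie2 2.3.4.3 and FastQC 0.11.8. Not given in the sources used here are strand setting, counted feature, annotation release and duplicate removal. Identifiers were matched to GENCODE M21 without version (53620 of 54547). Overlapping gene models with a row in the files held at most 44 counts in all libraries (Apoh, opposite Prkca), and at most 7.79% of any gene's exonic 50-base words occur in another gene. Of the exonic bases of Prkar1b 11.1% lie within another gene model on the same strand, and of those of Prkce 6.50%. The model over Prkce has no row in the files. Reads left uncounted in such stretches cannot be seen from the counts.

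Groups follow the titles. Counts were tested with edgeR 4.0.16 (R 4.3.3), filterByExpr (minimum count 10, total 15), TMM, robust quasi-likelihood estimation and p-values adjusted over 11051 genes by Benjamini-Hochberg, calling an adjusted p under 0.05. Intervals are 95%, from the fit's standard errors. Log2 CPM carry a prior count of 2. Alternatives used DESeq2 1.42.0, limma 3.58.1 and sva 3.50.0. The fit was tested on simulated data. Exact permutation tests are two-sided. The labels do not state whether animals shared cages or sessions. From each pathway list the called genes and the 2 with the smallest p are named. The 9 genes and the lists were chosen with earlier results of these data known. Intervals cover library spread as modelled, not unmeasured batches. Some genes of the pathway lists are not reported here.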

Additional observations from a re-analysis of the deposited data

How the results depend on the processing

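No kinase gene was called under the 13 other settings that keep all libraries or drop control 8 and PLX5622 28, and Prkcd kept its direction in the 11 that could test it, at -0.81 to -0.75 (log2) with adjusted p from 0.061 to 0.302. At a mean of at least 50 counts and after thinning Prkcd was not tested. Leaving out 1 library gave 0 to 1 kinase genes called lower, and log2 fold changes of -0.96 to -0.70 for Prkcd, -0.015 to 0.014 for Prkcb, -0.012 to 0.014 for Prkce, -0.044 to 0.0050 for Prkacb, -0.043 to 0.0051 for Prkar1b, -0.0039 to 0.060 for Prkar2b and -0.035 to 0.0065 for Fyn. Thinning to the smallest library was a single random draw, so its shifts include the error of that draw. It gave -0.043 for Prkca (-0.094 without thinning) and 0.055 for Prkaca (0.11). Without control 8 Prkaca was at 0.064. Signs also changed for values near 0, where the cause was not tested. These were Prkcb with a surrogate variable (0.0037) and after thinning (0.0048), Prkce with RLE (-0.00018) or upper-quartile scaling (-0.0040), at a mean of at least 50 counts (-0.0020), as a log2 ratio of mean CPM (-0.00016), added after the values were seen, after thinning (-0.00090) and without control 8 and PLX5622 28 (-0.0051), Prkacb without that pair (0.0016), and Prkar2b and Fyn after thinning (-0.013 and 0.029). The slope of Prkcb ran from -0.0028 to 0.0013 with 1 library left out. Over all genes, where 39 were lower and 5 higher, DESeq2 called 65 lower, a fit without a count filter 92 and 20, and a mean of at least 50 counts 8 and 0. Higher genes numbered 14 with limma-voom, 17 with the position covariate, 11 with a surrogate variable, 8 without control 8 and PLX5622 28, 10 at an adjusted p under 0.1 and 15 without robust estimation. Leaving out 1 library gave 38 to 50 lower and 2 to 13 higher. No scaling moved the median of all genes by over 0.1. No paired analysis was possible because the replicate numbers of the diets do not overlap. Depth limits Prkcd most, with 6 to 23 counts per library.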
